A study of Mus musculus with 6 samples.

Results

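SOX factors are transcription factors that bind DNA through an HMG box, a domain that fits the minor groove and bends the helix. Mammalian SOX proteins fall into lettered groups by their HMG box. The SoxD proteins Sox5, Sox6 and Sox13 pair through coiled coils and carry no activation or repression domain of their own, while the SoxC proteins Sox4, Sox11 and Sox12 activate transcription through a carboxyl-terminal domain. In B cells, Sox4 is needed for the pro-B stage in mice, and SOX5 transcripts mark atypical memory B cells in humans.

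The 4 genes described here, Sox5 and Sox13 of SoxD and Sox4 and Sox12 of SoxC, were listed by gene symbol and are 4 of 19938 genes measured. Each has 1 probeset that carries its symbol alone. The genes were chosen by the measured p80HT minus WT difference of Sox5 on these same arrays, with its relatives added, so the values of the 4 genes in p80HT against WT are given as a description, with no test. RNA came from splenic B cells of p80HT transgenic mice that had M-protein, a monoclonal immunoglobulin, in their serum (n = 3), and of wild-type (WT) littermates (n = 3), all 1 year old, from a C57BL/6J x SJL/J cross. In the p80HT mice a human transgene encodes p80HT, a truncated NF-κB2 from lymphoma, and is driven in T and B lymphocytes by an H-2Kb promoter and an immunoglobulin μ enhancer. Cells were selected with magnetic beads and an antibody to B220, and the RNA of each mouse was hybridised to its own Affymetrix Mouse Gene 1.0 ST array, read as log2 probeset signal, a scale on which a difference of 1 is a doubling.

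The array of p80HT replicate 3 stands apart from the other 5. Across genes its correlation with them was 0.914 to 0.925, and it held salivary and lacrimal gland transcripts, such as Pip at 13.70 against at most 5.51 on the others. The B cell markers measured (Ms4a1, Cd79a, Cd79b, Pax5 and Cd22) had a mean of 12.36, 12.27 and 11.27 on p80HT replicates 1, 2 and 3, against 12.40, 12.62 and 12.53 on the WT arrays. Mouse Nfkb2 was at 10.87, 10.63 and 10.57 in p80HT and at 10.79, 10.92 and 10.87 in WT. The transgene is human, so this probeset does not show whether it was expressed. Array medians lay between 7.68 and 7.81. The words rose and fell are kept for genes that passed the cut-off of the methods, a 1.5-fold change at an unadjusted p under 0.01, here computed in limma. Of all 19938 genes, 243 rose and 193 fell, and with each array centred on its median 183 rose and 342 fell.

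The start-site windows of the SoxD pair are shown because these 2 related genes have windows unlike in base composition. Whether base composition goes with the differences between the groups was not tested. Both windows are RefSeq sequences of build GRCm38.p6 on the minus strand, from 250 bases before a transcript start to 50 after it. They are written 5′ to 3′, with CpG dinucleotides in capitals. The Sox5 window is chr6:143947057-143947356 and the Sox13 window is chr1:133424163-133424462.
Sox5: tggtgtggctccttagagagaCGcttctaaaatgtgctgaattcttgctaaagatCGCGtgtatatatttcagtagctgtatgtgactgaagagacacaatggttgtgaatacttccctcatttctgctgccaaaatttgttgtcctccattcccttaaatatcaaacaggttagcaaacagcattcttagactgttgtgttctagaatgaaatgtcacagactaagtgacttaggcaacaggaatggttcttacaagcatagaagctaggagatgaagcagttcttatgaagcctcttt
Sox13: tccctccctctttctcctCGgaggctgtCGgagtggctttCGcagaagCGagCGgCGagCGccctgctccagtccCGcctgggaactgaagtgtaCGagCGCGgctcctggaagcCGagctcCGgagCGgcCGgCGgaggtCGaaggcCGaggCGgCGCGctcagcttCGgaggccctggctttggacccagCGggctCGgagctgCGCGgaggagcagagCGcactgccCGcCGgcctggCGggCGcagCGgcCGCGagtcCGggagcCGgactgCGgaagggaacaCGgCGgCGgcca

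The Sox5 window is 39.7% G and C and holds 3 CpG dinucleotides, and the Sox13 window is 73.3% G and C and holds 40. The SoxC windows had 52.0% and 12 for Sox4 and 76.7% and 47 for Sox12, where the median of all 32851 windows of this length was 52.7% and 7. Lower G and C content than that of Sox5 was found in 9.48% of windows. A search of both strands for the SOX site AACAAT, which 10.7% of all windows hold, and for the κB motif, which 8.46% hold, found no match in any of the 4. The Sox5 window lies at an inner start of the gene, for which RefSeq lists 28 transcripts, and not at its outermost one. The other 3 windows lie at the outermost start. The array reads all transcripts of a gene as 1 value and cannot tell which start was used.

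Sox5, a SoxD factor known for cartilage formation and for neuron and melanocyte development, was higher in p80HT B cells. Its probeset read 8.24, 8.13 and 7.99 (log2 signal) on p80HT replicates 1, 2 and 3, against 7.37, 7.37 and 7.57 on WT replicates 1, 2 and 3. The groups did not overlap, and a gap of 0.42 separated the lowest p80HT array from the highest WT array. The mean was 8.12 ± 0.13 (SD, n = 3) in p80HT and 7.44 ± 0.11 in WT, a log2 difference of 0.68, or 1.61-fold. The files hold no detection call, so it is not known how far the WT signal is above background. Averaged over all 6 arrays, Sox5 was dimmer than the median of all genes. A larger difference was found for 4.11% of all genes. Sox5 was chosen for this difference, so its being the 1 of the 4 genes past the cut-off is no test of it. Of all genes 1.22% passed as higher and 2.19% in either direction, and 0.0552% had a limma adjusted p under 0.05. Sox5 was also the 1 of the 4 whose groups did not overlap, as for 8.86% of genes with p80HT higher and 11.9% with p80HT lower. Neither count says anything further about the 4 genes.

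**Figure D1:**
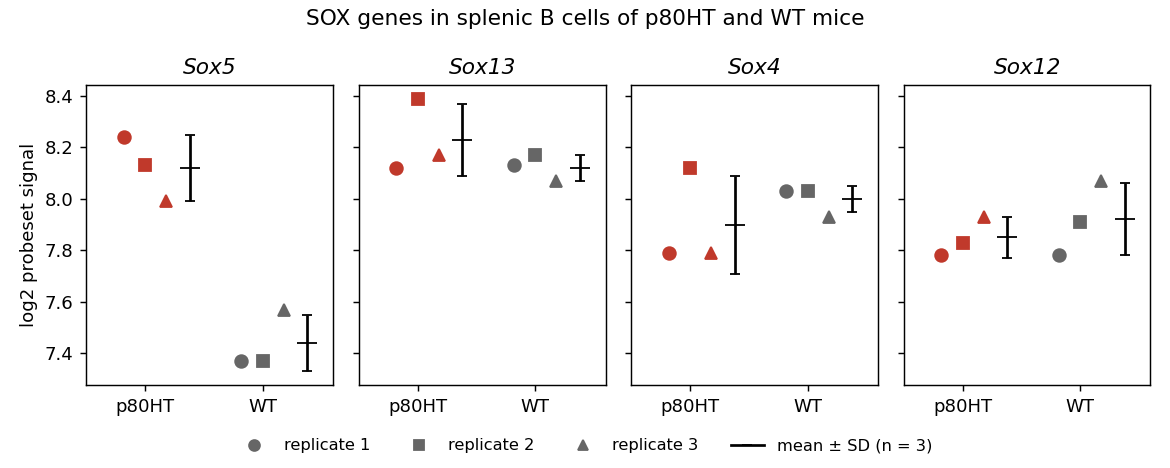
Log2 probeset signal (vertical axis) of the 4 genes in each mouse, p80HT in red and WT in grey, with a marker shape for each replicate number and the mean and SD (n = 3) in black, and heights not comparable between panels because probesets differ in brightness. The 3 p80HT values of Sox5 lie between 7.99 and 8.24, above the WT values of 7.37 to 7.57, while the groups of the other 3 genes overlap.

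Among the p80HT mice, Sox5 was lowest on replicate 3, the array with the lowest B cell marker mean and with the gland transcripts. Without that array the log2 difference was 0.75. T cell markers (Cd3d, Cd3e, Cd3g, Cd247 and Thy1) read higher in every p80HT mouse than in any WT mouse for 5 of 5 genes (8.86% of all genes), with a mean of 9.30, 9.16 and 10.92 on p80HT replicates 1, 2 and 3 against 8.17, 8.47 and 8.34 in WT. On p80HT replicate 3 the T cell mean was the highest and Sox5 the lowest of the p80HT arrays, and the B cell marker mean was lowest there too. Both Sox5 and the T cell markers were higher in every p80HT mouse than in any WT mouse. The part of other cells in the Sox5 signal was not tested. In bulk RNA, a change in the number of cells that express a gene and a change in its RNA per cell cannot be told apart.

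Sox13, the other SoxD gene of the list, marks gamma-delta T cells in mice. It was at 8.12, 8.39 and 8.17 in p80HT and at 8.13, 8.17 and 8.07 in WT. Only p80HT replicate 2 stood above the WT arrays, and p80HT replicate 1 lay within their range. The log2 difference was 0.10 (8.23 ± 0.14 in p80HT and 8.12 ± 0.05 in WT), less than the SD of 0.11 pooled over the groups, and 0.01 with each array centred on its median.

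Sox4, the SoxC factor of early B cells, was at 7.79, 8.12 and 7.79 in p80HT and at 8.03, 8.03 and 7.93 in WT. The p80HT mice spread wider than the WT mice, with 1 array above all WT arrays and 2 below them. The log2 difference was -0.10 (7.90 ± 0.19 in p80HT and 8.00 ± 0.05 in WT), within the pooled SD of 0.14. On p80HT replicate 2, Sox4 and Sox13 were both at their highest of the 6 arrays.

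Sox12, the SoxC gene with the weakest activation domain of the 3, was at 7.78, 7.83 and 7.93 in p80HT and at 7.78, 7.91 and 8.07 in WT. The p80HT values lay inside the WT range on all 3 arrays. The log2 difference was -0.07 (7.85 ± 0.08 in p80HT and 7.92 ± 0.14 in WT), within the pooled SD of 0.12, and without WT replicate 3 it was 0.00. All 4 genes varied little among mice of 1 group. Their pooled SD was 0.11 to 0.14, where the median over all genes was 0.21.

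The other SOX genes, 15 on the list and all measured, gave no calls. By limma 0 of them rose or fell, 0 had an unadjusted p under 0.05, 0 were called by an ordinary analysis of variance, and in 0 were the groups free of overlap. Over all genes 2.19% passed, and 8.86% were free of overlap with p80HT higher and 11.9% with p80HT lower. For so short a list a count of 0 calls is close to the background. Their log2 differences ran from -0.21 for Sox8 to 0.51 for Sox18, with a median of 0.04 against -0.02 over all genes. In SoxC, Sox11 was at 6.17, 6.23 and 6.10 in p80HT and at 6.32, 6.03 and 6.30 in WT, a difference of -0.05 (limma adjusted p = 0.979). A p above the threshold does not show equal levels.

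Sox6, the closest relative of Sox5 and its partner in cartilage, was at 7.61, 7.75 and 7.16 in p80HT, against 7.30, 7.25 and 7.27 in WT. The first 2 p80HT arrays were above all WT arrays, and p80HT replicate 3 was below them. Its log2 difference was 0.23 (limma adjusted p = 0.699), which did not pass. Leaving out p80HT replicate 3 gave 0.41 (limma adjusted p = 0.0588), which did not pass either. In that fit Sox6 met the p limit of the cut-off but not the 1.5-fold limit.

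**Figure D2:**
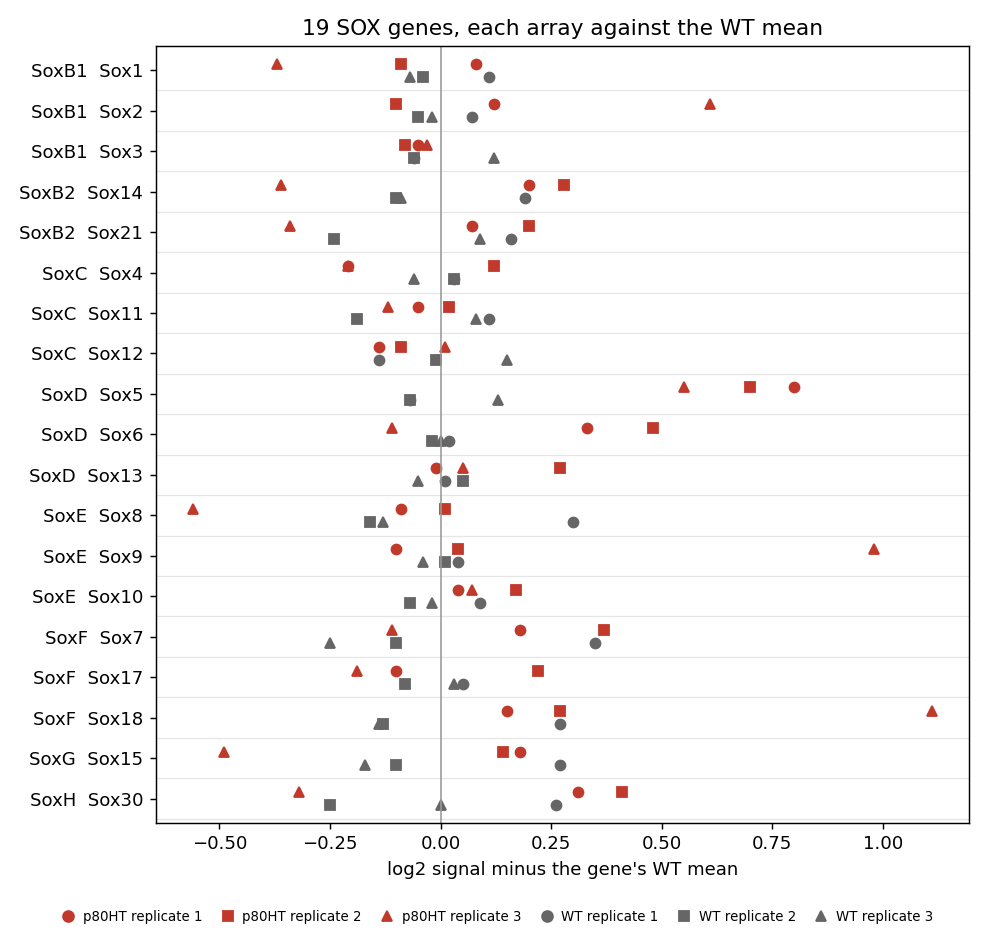
Log2 signal of 19 SOX genes minus each gene's own WT mean (horizontal axis), 1 point per array, p80HT in red above WT in grey in each row, with the SOX group before the gene's name. Sox5 is the only row in which all 3 red points (0.55 to 0.80) lie right of all grey points. Sox9, Sox18 and Sox2 have a lone red triangle, p80HT replicate 3, at 0.98, 1.11 and 0.61.

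Sox9, Sox18 and Sox2 were highest on p80HT replicate 3. Sox9, a SoxE factor of cartilage and of gland ducts, was at 8.55 on that array and between 7.47 and 7.61 on the other 5. Sox18, a SoxF factor of blood and lymphatic vessels, was at 9.11 and between 7.85 and 8.27. Sox2, a SoxB1 factor of stem cells, was at 6.74 and between 6.03 and 6.25. Without p80HT replicate 3 their log2 differences were -0.03, 0.21 and 0.01. The same array exceeded the other 5 for 3 of 19 SOX genes (15.8%) and for 27.8% of all genes, and lay below them for 8 of 19 (42.1%) and for 48.1% of all genes. For the 4 listed genes it lay within the range of the other arrays.

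Markers of other tissues moved on that array together with Sox9 and Sox18. The mean of 6 salivary and lacrimal gland markers was 6.96, 7.19 and 12.48 on p80HT replicates 1, 2 and 3, against 6.69 to 6.99 in WT. For 6 fibroblast markers it was 7.35, 7.51 and 9.80 on the p80HT arrays, against 7.05 to 7.50 in WT. The mean of 6 endothelial markers, a list added after Sox18 had been seen, was 7.59, 7.66 and 9.02 on the p80HT arrays, against 7.47 to 7.65 in WT. By limma 0 of 6 gland and 0 of 6 fibroblast markers passed, with 0 in each at an unadjusted p under 0.05 and 0 by analysis of variance. Of the endothelial markers 1 fell and 0 rose, where 0.968% of all genes fell and 1.22% rose. The member that fell was Pecam1 (-0.92), an adhesion receptor that B cells also carry. The part of these tissues in the Sox9 and Sox18 values was not tested.

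**Figure D3:**
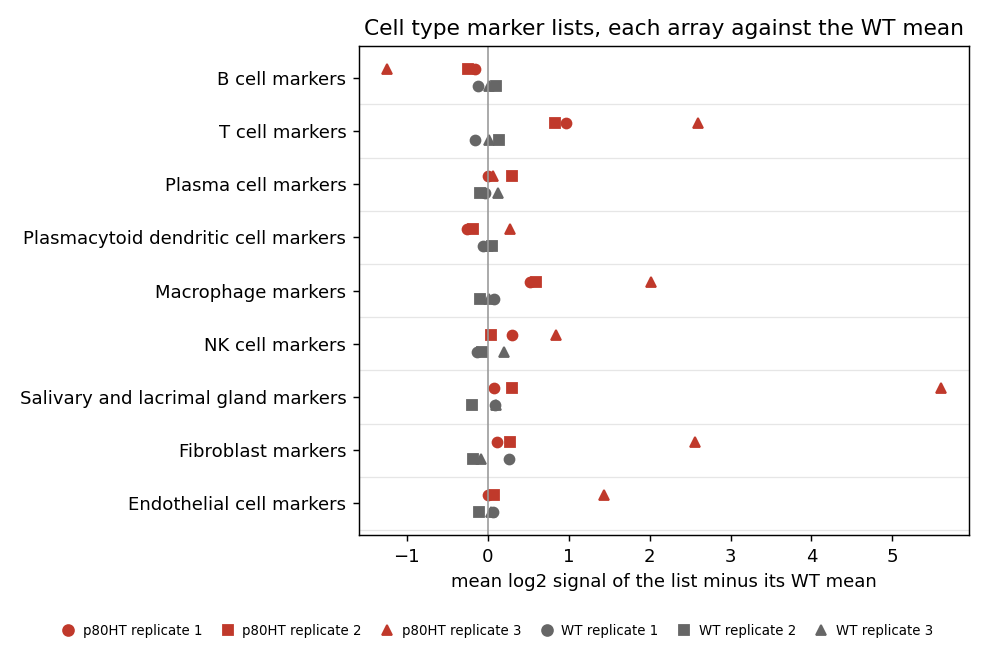
Mean log2 signal of each marker list minus its own WT mean (horizontal axis), 1 point per array, p80HT in red above WT in grey. The red triangle, p80HT replicate 3, is far right for gland, fibroblast, T cell, macrophage and endothelial markers and left of the other arrays for B cell markers, and the other 2 p80HT arrays lie right of WT for T cell and macrophage markers.

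Markers of other blood cells that a B220 selection can hold were read beside the SOX genes. Over all genes 1.22% rose and 0.968% fell. Of 5 T cell markers 2 rose and 0 fell, Cd3g (2.03) and Cd3e (1.74), chains of the T cell receptor complex. The call of Cd3g was lost without WT replicate 1 (1.96), 2 (2.12) or 3 (2.03), and that of Cd3e without WT replicate 1 (1.64). By ordinary analysis of variance 0 of the 5 were called, and in limma without p80HT replicate 3 all 5 rose, by a median of 0.62. Of 6 macrophage markers 2 rose and 0 fell, Vsig4 (0.62) and Adgre1 (0.72). Adgre1 no longer passed when any 1 array other than p80HT replicate 3 was left out (0.57 to 0.75). Of 6 plasma cell markers 1 rose and 0 fell, Prdm1 (0.80), the repressor that directs plasma cell formation. By limma 0 of 5 B cell, 0 of 6 plasmacytoid dendritic cell and 0 of 6 NK cell markers passed, with 0, 3 and 1 at an unadjusted p under 0.05 and 0 in each by analysis of variance. Without p80HT replicate 3, the NK cell gene Eomes passed (0.60).

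Genes of the gamma-delta T cell and IL-17 programme, in which Sox13, Sox4 and Sox5 act in mouse T cells, were read next. Of 11 measured, 0 passed by limma and 0 by analysis of variance, with 1 at an unadjusted p under 0.05, the nuclear receptor gene Rora, which was at 7.52, 7.46 and 8.16 in p80HT and at 7.10, 7.17 and 7.22 in WT. Over all genes 2.19% passed by limma, so 0 of 11 is close to the background. The median difference of the list was 0.03, against -0.02 over all genes. Etv5 was at 10.53 on p80HT replicate 3 and between 7.84 and 8.23 on the other 5 arrays.

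A list of memory B cell genes, including those of the atypical and age-associated state that human SOX5 marks, was read on the same arrays. Of 16 measured, 5 rose (1.22% of all genes did), 0 fell and 11 did not pass, and 2 had an adjusted p under 0.05 over all genes. Tbx21, Itgax and Zeb2, genes of that state, were not among the 5. Without p80HT replicate 3, 7 rose and 0 fell. The median difference was 0.72, and 0.50 without p80HT replicate 3, against -0.02 over all genes. T cell and macrophage markers were higher on the same p80HT arrays, with medians of 1.30 and 1.08, and 0.62 and 0.56 without p80HT replicate 3, and their part in the list's values was not tested. The list was made with earlier results of these arrays known, and the study's own list of changed genes holds Cd80, Nt5e, Fcrl5 and Zbtb32, so the count is not independent evidence.

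Fcrl5, an Fc receptor-like protein of atypical memory B cells, was at 12.00, 11.60 and 11.35 in p80HT and at 10.70, 10.40 and 10.67 in WT, a log2 difference of 1.06 (limma adjusted p = 0.154). Zbtb32, a repressor that limits memory responses, was at 9.99, 9.61 and 9.26 in p80HT and at 8.70, 8.53 and 8.52 in WT, a difference of 1.04 (adjusted p = 0.166). Both had the order of the p80HT mice that Sox5 had, highest on replicate 1 and lowest on replicate 3. How many genes have this order was not counted, so it does not link them to Sox5. On p80HT replicate 3, 48.1% of all genes lay below the other 5 arrays. The other risers were Cd80 (1.81, adjusted p = 0.0173), a ligand of CD28, Nt5e (1.47, adjusted p = 0.0191), the ectonucleotidase CD73, and Zbtb20 (0.74, adjusted p = 0.287), a factor of plasma cell survival. The call of Zbtb20, named after its values were seen, was lost when any 1 array other than p80HT replicate 3 was left out (0.59 to 0.78), and its second probeset was at 0.31.

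The defining genes of the atypical and age-associated state did not all move with Sox5. Tbx21, which encodes T-bet, was at 9.14, 9.18 and 10.50 in p80HT and at 9.21, 9.27 and 9.17 in WT, and only p80HT replicate 3 lay above the WT arrays. Itgax, which encodes CD11c, was at 9.97, 9.85 and 11.36 in p80HT and at 9.15, 9.22 and 8.88 in WT, with no overlap. Its difference of 1.31 just missed the cut-off with all 6 arrays (limma unadjusted p = 0.011, adjusted p = 0.339). Leaving out p80HT replicate 3, where it was highest, gave 0.83, which passed (adjusted p = 0.00551). Tbx21 and Itgax are also expressed by other leukocytes. Of the 16 genes, 9 had no overlap with p80HT higher and 1 with p80HT lower, against 8.86% and 11.9% of all genes. The lower one was Fcrla (-0.85, and -0.49 without p80HT replicate 3), which did not pass. Siglecg (-0.26, and 0.12 without that array) and Zeb2 (0.27 and 0.03) did not pass and overlapped. All genes of this paragraph were named after their values were seen.

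Partners and relatives outside the SOX family were mixed, and over all genes 1.22% rose and 0.968% fell. Of 17 other HMG-box genes, 0 rose and 1 fell, Tfam (-0.79), the packaging factor of mitochondrial DNA, which no longer passed when WT replicate 2 (-0.71), WT replicate 3 (-0.75), p80HT replicate 1 (-0.78) or p80HT replicate 2 (-0.62) was left out. Without p80HT replicate 3, 2 fell, the other being the chromatin protein gene Hmgb1 (-0.64, limma adjusted p = 0.0551). Of 15 TGF-β receptor and SMAD genes, a pathway that induces Sox4 in several cell types, 0 rose and 2 fell. Smad7, which blocks the receptors, was at 9.65, 9.43 and 9.10 in p80HT and at 10.26, 10.50 and 10.49 in WT (difference -1.02, limma adjusted p = 0.140), and the ubiquitin ligase gene Smurf2 differed by -0.62 and did not pass when WT replicate 2 (-0.57) or 3 (-0.61) was left out.

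Of 17 Wnt and β-catenin genes, the pathway whose TCF factors bind SOX proteins, 2 rose and 0 fell (1.22% and 0.968% of all genes did). Rnf43, a ligase that removes Wnt receptors, was at 9.85, 9.53 and 9.73 in p80HT and at 8.52, 8.44 and 8.55 in WT (difference 1.20, limma adjusted p = 0.0519). Ccnd1, which encodes cyclin D1, differed by 1.30, and this no longer passed when WT replicate 1 (1.35), 2 (1.38) or 3 (1.18) was left out. The median differences of the HMG-box, TGF-β and Wnt lists were -0.02, -0.25 and 0.00.

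Of 16 genes of early B cells, the stage at which Sox4 acts, 0 passed by limma and 0 by analysis of variance, with 3 at an unadjusted p under 0.05. Il7r, the receptor chain for IL-7 that T cells also carry, was at 9.47, 9.18 and 11.58 in p80HT and at 8.09, 8.76 and 8.52 in WT (difference 1.62, limma adjusted p = 0.431). Bach2, a repressor of plasma cell fate, was at 10.84, 10.90 and 9.43 in p80HT and at 11.56, 11.79 and 11.61 in WT. Its difference was -1.26 (limma unadjusted p = 0.0124, adjusted p = 0.349). Without p80HT replicate 3, Bach2 (-0.78) passed as lower and Il7r (0.87) and the receptor gene Kit (0.60) passed as higher. Of 11 SOX target genes known from cartilage and neurons, 0 passed by limma and 0 by analysis of variance, with 0 at an unadjusted p under 0.05. With all arrays 2.19% of all genes passed by limma, so 0 in lists of 16 and 11 genes is close to the background.

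The genes whose pattern was nearest to that of Sox5 were found by the root mean square difference over the 6 arrays, after each gene's WT mean was subtracted, among genes at or above the median mean signal. Sox5 itself was below that median. The nearest were Endod1 (0.079), H2-Q4 (0.096) and Lacc1 (0.105). These genes were picked on the same values, so their likeness to Sox5 is no further evidence. Endod1, an endonuclease-like gene, was at 9.21, 8.85 and 8.91 in p80HT and at 8.22, 8.23 and 8.40 in WT. It shares with Sox5 a highest p80HT value on replicate 1 and a highest WT value on replicate 3. H2-Q4, a non-classical MHC class I gene of a family of near-identical copies, was at 12.15, 11.98 and 12.03 in p80HT and at 11.42, 11.42 and 11.41 in WT. Lacc1, an enzyme of macrophage metabolism, was at 9.75, 9.90 and 9.74 in p80HT and at 9.15, 9.12 and 9.15 in WT. Among the same 9967 candidate genes the smallest distances for the other 3 SOX genes were 0.046 from Sox13 to Pcbd2, 0.046 from Sox4 to Bcl2l12 and 0.022 from Sox12 to Zbtb1. Most genes differ little between the groups, as these 3 SOX genes do. Their smaller distances therefore follow from the measure and say nothing further about them.

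**Figure D4:**
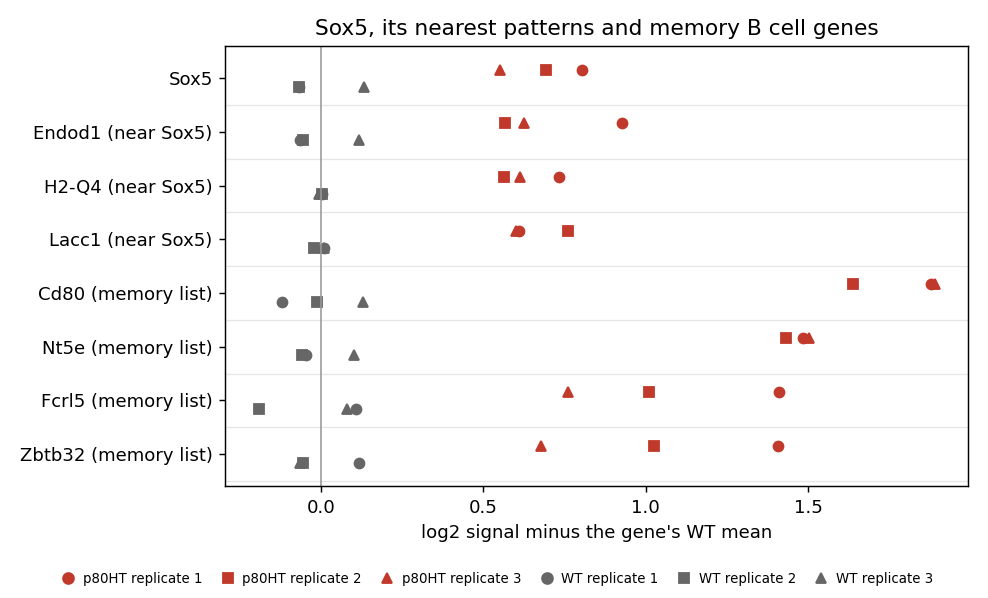
Log2 signal minus each gene's own WT mean (horizontal axis) for Sox5, the 3 genes nearest to it in pattern and 4 risers of the memory B cell list, 1 point per array, p80HT in red above WT in grey. The 3 near genes, picked on these same values, differ by 0.64 to 0.71 and Sox5 by 0.68. For Cd80 and Nt5e the p80HT points lie farther right.

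The genes next to the 4 SOX genes on their chromosomes were read for a shared regional change. Of the 16 neighbours, the 2 nearest measured protein-coding genes on each side, 0 rose and 0 fell by limma and 0 were called by analysis of variance, with 1 at an unadjusted p under 0.05. Over all genes 2.19% passed by limma, so 0 of 16 is close to the background and cannot decide on a regional change. Beside Sox5 on chromosome 6, Etnk1 was at 10.84, 10.69 and 10.30 in p80HT and at 10.76, 11.09 and 10.98 in WT. Bcat1 on the other side was at 7.09, 7.28 and 9.31 in p80HT and at 7.62, 7.35 and 7.37 in WT, high on p80HT replicate 3 alone. Differences of the 16 ran from -0.48 to 0.45, and the neighbour at an unadjusted p under 0.05 was Cdkal1 beside Sox4 (-0.45, limma adjusted p = 0.440). Without p80HT replicate 3, Snrpe beside Sox13 passed the threshold (-0.76).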

How the data were processed

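Per the labels and methods, the authors made the deposited values, log2 probeset signals, with RMA in Partek Genomics Suite, 1 array per mouse and none pooled. Versions, settings and annotation release are not given in the sources used here. RMA usually includes background correction, quantile normalization and a summary over probes. Of 28853 probesets, 21789 carry exactly 1 gene symbol in the platform table, 1621 several and 5443 none. The first were used, and where several shared a symbol the one brightest on average over the 6 arrays stood for the gene, which left 19938 genes.

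For p80HT against WT, 3 arrays each, lmFit and eBayes of limma 3.58.1 (R 4.3.3) gave two-sided tests without a block, with Benjamini-Hochberg adjustment over all genes. At this size the smallest p of an exact permutation test is 0.1. The 4 genes, the 17 gene lists and the choice of tests were made with earlier results of these data known. Of the listed genes, 9 were not analysed here. Besides the 4 genes, genes are named by rule: Sox6, Sox11 and other SOX genes past the threshold, up to 4 per list past the threshold or 2 with the smallest p, the nearest patterns, and checks. Others are named after their values were seen. Alternatives were leaving out each array, the replicate number as a block, 2 other scalings, the mean of a gene's probesets, ordinary analysis of variance, a variance trend, a filter at the 50th percentile of mean signal, and an adjusted p under 0.05. In simulated data with 19938 genes and 3 against 3 arrays, 93 of 100 genes changed 2-fold and 100 of 100 changed 4-fold were recovered with 112 false calls. The simulated noise was independent and normal, with the same variance on every array, so no array stood apart as p80HT replicate 3 does. These counts need not hold for the real arrays. Start-site windows come from RefSeq (GRCm38.p6), which matched all 4 genes. Arrays give no read depth, so their number limits the precision. Tables used Python 3.11.15 and pandas 2.3.3, and figures matplotlib 3.10.9.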

Additional observations from a re-analysis of the deposited data

How the results depend on the processing

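The log2 differences of the 4 SOX genes moved by less than the SD between mice under every alternative that could move them. The replicate block could not, because every number occurs once in each group. Nor could the mean of a gene's probesets, because each of the 4 genes has 1 probeset. Leaving out 1 array at a time gave 0.62 to 0.75 for Sox5, 0.02 to 0.16 for Sox13, -0.21 to -0.04 for Sox4 and -0.14 to 0.00 for Sox12. Centring each array on its median, which moves the median difference of all genes from -0.02 to -0.12, gave 0.59 for Sox5, 0.01 for Sox13, -0.19 for Sox4 and -0.16 for Sox12. The count of other SOX genes called was 0 in limma under all alternatives and 0 by ordinary analysis of variance. With the filter at the 50th percentile of mean signal only 5 of the 15 were tested, as the rest were dimmer than that. Sox5, with means of 8.12 in p80HT and 7.44 in WT, was below that percentile too.

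The count over all genes, 436, was 196 with ordinary analysis of variance and 11 at an adjusted p under 0.05, and 206 to 691 without 1 array. It was lowest when WT replicate 2 (206) or WT replicate 3 (220) was left out, and highest when p80HT replicate 3 was (691). Of 148 genes on the surrounding lists, without the endothelial list added later, 15 passed, where 2.19% of all genes did. These lists were made with earlier results known, so the count is no test. This count was 23 with the replicate block, 9 with ordinary analysis of variance, 2 at an adjusted p under 0.05, and 9 to 25 without 1 array. Its lowest value came when WT replicate 2 or 3 was left out, and its highest, 25, when p80HT replicate 3 was. The cause was not tested. The labels number the mice but do not pair them: deviations of same-numbered arrays correlate at 0.07, -0.24 and 0.07, and 2 of 6 arrays were closest to their own number. With the block 567 of all genes passed, while the log2 difference of Sox5, 0.68, cannot change with it. The number of arrays and the unknown height of signal over background limit what can be seen.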
